A study of Rattus norvegicus with 6 samples.

Results

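Calcium handling genes of the cardiomyocyte were examined in rat myocardium after coronary ligation. The genes were Ryr2, Casq2, Trdn, Jph2, Atp2a2, Pln, Sln, Cacna1c, Slc8a1 and Camk2d, taken by symbol from a table of 32623 genes. Each of the 10 symbols had its own row, and each of the 10 genes passed the filter for low expression (0.5 FPKM or more on average across the 6 libraries), as did 13964 genes in all. FPKM is the number of sequenced fragments scaled to gene length and library size.

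RNA sequencing was performed on total RNA of myocardial tissue from wild-type (WT) male rats, with 3 samples in the sham group and 3 in the ischemia group. In the ischemia group a ligature closed the left anterior descending coronary artery for 30 min, and for the sham group the same time and an operation without a described ligation were recorded. Rat strain, age, the part of the heart sampled and whether it lay within the ischemic zone were not given in the sources used here. The tissue was sequenced whole, so fewer cells of a type and less RNA per cell cannot be told apart. The sources do not state that each sample came from a separate rat, and p-values therefore measure only the spread between these samples.

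Each heartbeat depends on calcium. An action potential opens L-type calcium channels in the cell membrane, and the calcium that enters triggers a far larger release from the sarcoplasmic reticulum (SR) through ryanodine receptors, a process called calcium-induced calcium release. Relaxation follows when the SR pump returns calcium to the store and the sodium-calcium exchanger moves the rest out of the cell, and kinases such as CaMKII tune both steps.

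Total counts ranged from 68529126 to 79591989 per sample, so 3 counts corresponded to 0.0377 to 0.0438 CPM (counts relative to the library total), a limit that covers counting error only. Some libraries stood apart within their group. The summed FPKM of 5 atrial markers (Myl7, Myl4, Nppa, Bmp10 and Kcnj3) was 44730 and 36130 in sham replicates 1 and 3 but 204.8 in sham replicate 2. In ischemia it was 9200, 2075 and 1276. Values of a group are listed here and below in the order of replicates 1, 2 and 3. Y-linked genes had 26 counts in sham replicate 1 and between 1772 and 4366 in each other library, while the labels describe male rats. The summed FPKM of 8 neutrophil and monocyte markers ranged from 102.6 to 181.1 in sham and from 1245 to 8366 in ischemia, and 8 of 8 were higher in ischemia in the edgeR test. The sum of the 9 measured cardiomyocyte markers was 36420 to 60470 in sham and 18840 to 35920 in ischemia. Markers of other cell types also had medians below 0. The median log2 fold change was -1.59 for 4 fibroblast markers, -1.59 for 5 smooth muscle markers and -3.47 for 4 adipocyte markers, of which 1 (Smtn, smooth muscle) passed the edgeR test. Sham replicate 3 had the highest sum of each, at FPKM 1125, 885.2 and 1147, against 330.5 to 668.7, 163.3 to 201.2 and 473.5 to 627.3 in the other sham samples. In ischemia the sums were 171.6 to 414.0, 63.8 to 245.8 and 392.7 to 678.7. Fits with libraries scaled to the cardiomyocyte markers and with the atrial markers as a covariate gave the 10 genes a median log2 fold change of -0.61 and -0.87, against -1.31 without them, while the median of all genes was 0.82 and 0.02. The part of the other marker differences in the results was not tested. The atrial markers are given again beside Sln.

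Promoters are shown for 4 of the genes, the release channel Ryr2, the junction gene Jph2, the pump Atp2a2 and the pump inhibitor Pln. The first 3 had no ischemia value as high as any sham value, and Pln is the partner of the pump whose groups overlapped. Each run is the 250 bases before the RefSeq start in the assembly GRCr8, written 5′ to 3′ on the strand of the gene. The deposited table, whose build is not given, lists Ryr2 and Slc8a1 on the minus strand and GRCr8 lists both on the plus strand, so positions of these 2 sources cannot be combined. Capitals mark a GC box (GGGCGG) or a CCAAT box (CCAAT) on either strand.
Ryr2, chr17:63081277-63081526, plus strand: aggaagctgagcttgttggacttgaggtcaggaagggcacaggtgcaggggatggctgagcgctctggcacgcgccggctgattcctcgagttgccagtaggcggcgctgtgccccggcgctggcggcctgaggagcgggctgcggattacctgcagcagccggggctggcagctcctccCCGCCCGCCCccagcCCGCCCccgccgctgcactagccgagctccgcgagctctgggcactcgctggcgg
Jph2, chr3:172477922-172478171, minus strand: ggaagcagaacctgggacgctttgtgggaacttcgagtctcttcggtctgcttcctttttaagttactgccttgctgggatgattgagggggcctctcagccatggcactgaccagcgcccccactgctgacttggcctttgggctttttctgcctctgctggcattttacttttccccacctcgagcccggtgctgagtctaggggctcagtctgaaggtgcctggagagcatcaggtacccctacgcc
Atp2a2, chr12:39733269-39733518, plus strand: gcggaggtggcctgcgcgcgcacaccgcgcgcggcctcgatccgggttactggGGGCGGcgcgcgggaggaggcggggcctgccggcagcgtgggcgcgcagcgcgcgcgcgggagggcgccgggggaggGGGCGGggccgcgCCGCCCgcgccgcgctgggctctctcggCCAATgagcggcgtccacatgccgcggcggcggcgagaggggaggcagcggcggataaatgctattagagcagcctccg
Pln, chr20:33172244-33172493, plus strand: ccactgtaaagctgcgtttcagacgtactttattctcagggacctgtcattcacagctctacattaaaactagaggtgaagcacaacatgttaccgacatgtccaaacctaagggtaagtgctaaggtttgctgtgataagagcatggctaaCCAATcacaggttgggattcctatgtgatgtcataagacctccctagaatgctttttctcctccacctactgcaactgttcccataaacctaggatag

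Promoters of 9 of the 10 genes were matched in the RefSeq table used here, and that of Sln was not analysed. The promoters of the pump and its inhibitor differed widely in base composition. The Atp2a2 promoter was 80% G and C with 45 CpG pairs, and the Pln promoter was 44% G and C with 3 CpG pairs, against a median of 51.2% over 33469 rat promoters. Ryr2 was at 72% and Camk2d at 75.2%, while Slc8a1 was lowest at 35.2%. A GC box was found in 3 of the 9 promoters (Ryr2, Atp2a2 and Camk2d, with 3 matches each, of which a pair in Ryr2 overlap) and in 30.5% of all promoters. A CCAAT box was found in 4 of the 9 (Atp2a2, Pln, Cacna1c and Slc8a1) and in 34% of all. The TATA box TATAAA (12.9% of all) and the GATA site AGATAA (10.3% of all) were in 0 of the 9, and the TEAD site CATTCC (12.1% of all) was in Cacna1c alone. The 5 genes with all ischemia values below all sham values had promoters from 46.4% (Casq2) to 80% G and C, and a match of letters describes the window, not a bound site.

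The question asked of these genes was whether their mRNA differed after 30 min of ischemia. In ischemia the fitted log2 fold change was below 0 for 10 of 10 genes (8 of 10 with libraries scaled to the cardiomyocyte markers), with a median of -1.31 and a range from -3.99 to -0.54, whereas the median of all tested genes was -0.001. None of the 10 passed an adjusted p-value under 0.05 in the edgeR quasi-likelihood test, where 1.53% of all tested genes were called lower and 5.18% higher. At an unadjusted p under 0.05 there were 6 of 10 (Ryr2, Casq2, Trdn, Jph2, Atp2a2 and Camk2d), against 4528 of 13964 genes in either direction. This count was 1 of 10 with cardiomyocyte marker scaling (3582 of all genes), 2 of 10 with the atrial markers as a covariate (2219) and 2 of 10 with sham replicate 2 as the only sham library (1707). For 5 of 10 genes (Ryr2, Casq2, Jph2, Atp2a2 and Camk2d) all ischemia values lay below all sham values, a pattern found in 15.0% of all tested genes. The opposite pattern, which 23.6% of all tested genes showed, occurred in 0 of the 10. In DESeq2, which called 12.5% of all tested genes lower, the same 6 genes passed.

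The 10 genes together took 1.74%, 1.71% and 1.45% of all counts in the sham libraries and 1.02%, 0.31% and 0.629% in the ischemia libraries. Ischemia replicate 2 held the lowest value of 8 of the 10 genes. The highest value always lay in a sham sample, in sham replicate 1 for 6 genes, in sham replicate 2 for 3 and in sham replicate 3 for 1. Ischemia replicate 2 also had the highest sum of neutrophil and monocyte markers (8366) and the lowest sum of cardiomyocyte markers (18840).

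**Figure D1:**
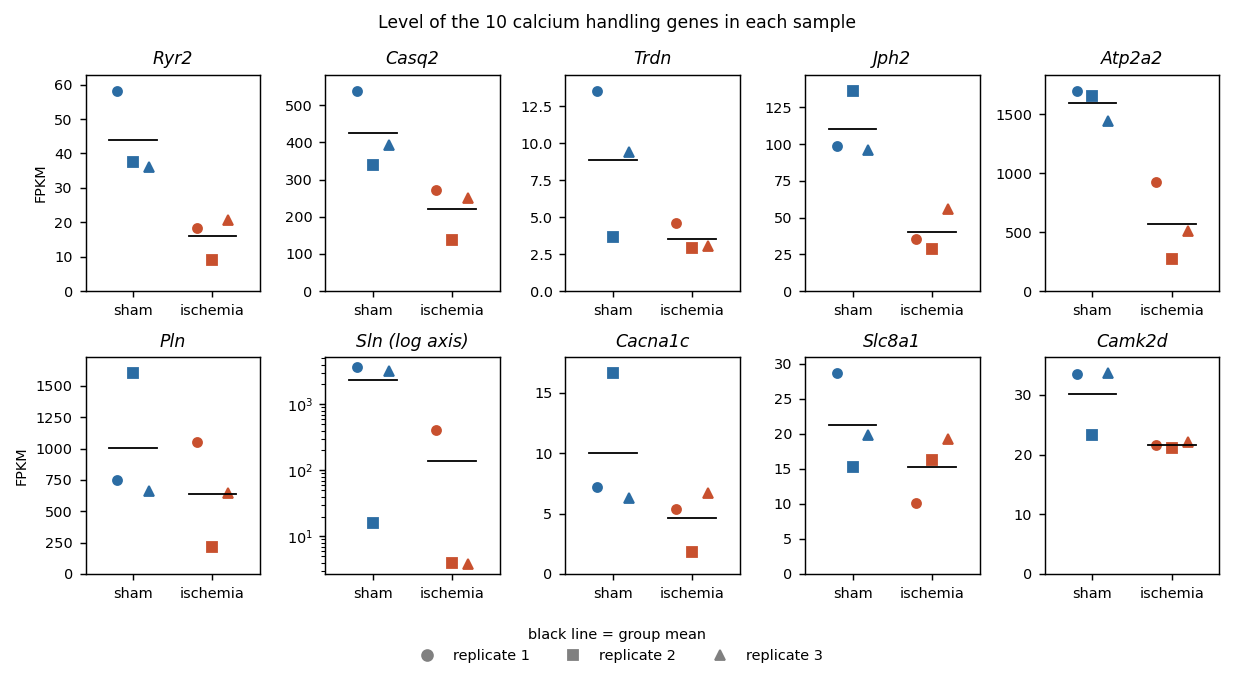
FPKM of each calcium handling gene (vertical axis, linear from 0 except for Sln, whose axis is logarithmic) in the 3 sham (blue) and 3 ischemia (orange) samples. Symbols give the replicate number and black lines the group mean, and the panels of Ryr2, Casq2, Jph2, Atp2a2 and Camk2d show no overlap between the groups.

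Release of calcium from the SR was represented by 4 genes. Ryr2 (ENSRNOG00000017060, chr17:65535403-65955606, minus strand) encodes the cardiac ryanodine receptor, the channel through which the SR empties. Its FPKM was 58.3, 37.5 and 36.0 in sham and 18.4, 9.01 and 20.7 in the ischemia group. The lowest sham value was 1.74 times the highest ischemia value. The group means were 43.9 ± 12.5 and 16.0 ± 6.19 (SD, n = 3 each), and the fitted level was 2.85-fold lower in ischemia. On the log2 scale this was -1.51 ± 0.41 (SE, edgeR adjusted p = 0.0696).

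Casq2 (ENSRNOG00000016243, chr2:204512302-204568656, plus strand) encodes calsequestrin, the protein that binds calcium inside the SR. Its FPKM was 539.8, 340.5 and 392.6 in sham and 272.7, 137.0 and 249.4 in the ischemia group. The groups did not overlap, with a mean of 424.3 ± 103.4 against 219.7 ± 72.6 (SD, n = 3 each). Casq2 thus differed by -1.01 ± 0.35 in log2 units (SE, edgeR adjusted p = 0.115), close to 2.01-fold.

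Trdn (ENSRNOG00000012609, chr1:25403390-25839345, minus strand) encodes triadin, which ties calsequestrin to the release channel. It was among the lowest of the 10 in fragments per length, at FPKM 13.6, 3.67 and 9.43 in sham and 4.58, 2.94 and 3.03 in ischemia. Sham replicate 2 fell among the ischemia values, so the groups overlapped. The fitted difference was -1.36 ± 0.43 in log2 units (SE, edgeR adjusted p = 0.0931). With sham replicate 2 as the only sham library it was -0.36, and with a covariate for the atrial markers it was -0.54.

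Jph2 (ENSRNOG00000008170, chr3:159712325-159775643, minus strand) encodes junctophilin, the bridge that holds the SR against the cell membrane where the L-type channel faces the ryanodine receptor. Its FPKM was 98.5, 136.4 and 96.1 in sham and 35.5, 28.4 and 55.7 in ischemia. All 3 ischemia values lay below all 3 sham values, with means of 39.9 ± 14.2 and 110.3 ± 22.6 (SD, n = 3 each). The log2 fold change of -1.57 ± 0.39 (SE) corresponded to a 2.97-fold lower level. The edgeR adjusted p of 0.0587 was the smallest among the 10 genes, and Jph2 passed in 5 of the 20 alternatives, with a DESeq2 adjusted p of 0.00155 and a limma adjusted p of 0.0348 on log2(FPKM + 0.1). Over all 20 alternatives its adjusted p ran from 0.00155 to 0.394.

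Return of calcium to the SR was represented by the pump and its inhibitors. Atp2a2 (ENSRNOG00000001285, chr12:39553903-39603326, plus strand) encodes SERCA2, the pump that refills the store and sets the speed of relaxation. It was among the most abundant transcripts of sham tissue, at FPKM 1699, 1652 and 1441, which gave it rank 42, 44 and 48 among all genes. In ischemia the FPKM was 921.7, 273.8 and 506.1, and its rank was 93, 324 and 176. The sham values differed among themselves by 1.18-fold and the ischemia values by 3.37-fold, so the spread lay mainly in the ischemia group. The means were 1597 ± 137.7 and 567.2 ± 328.2 (SD, n = 3 each), and the fitted level was 2.98-fold lower. This corresponds to -1.57 ± 0.52 in log2 units (SE, edgeR adjusted p = 0.103). Without ischemia replicate 1, the highest of the ischemia samples, the log2 fold change was -2.12 and the edgeR adjusted p was 0.0456, in a fit that called 7.98% of all tested genes lower. With all 6 samples Atp2a2 also passed in DESeq2 and in limma on quantile-normalized values (adjusted p = 0.0467). Over the 20 alternatives the adjusted p of Atp2a2 ran from 0.00741 (DESeq2) to 0.395.

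Pln (ENSRNOG00000000413, chr20:34633157-34642904, plus strand) encodes phospholamban, which holds the pump back until it is phosphorylated. Its FPKM was 751.1, 1599 and 660.8 in sham and 1051, 211.6 and 645.0 in ischemia. Sham replicate 2 was high and ischemia replicate 2 low, while the other 4 samples were mixed between 645.0 and 1051. The fit gave -0.79 ± 0.71 in log2 units (SE, edgeR adjusted p = 0.459). This value was -0.11 without sham replicate 2 and -0.37 without ischemia replicate 2.

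Sln (ENSRNOG00000009047, chr8:58431407-58435654, plus strand) encodes sarcolipin, a small inhibitor of the SR pump that in the heart is known mainly from the atria. It varied far more between libraries than any other of the 10 genes. Its FPKM was 3649, 15.9 and 3239 in sham and 414.7, 3.89 and 3.80 in ischemia. In counts these were 82870, 384 and 70010 reads in sham and 10187, 87 and 81 in the ischemia group. The highest sham value was 230-fold the lowest and the highest ischemia value 109-fold the lowest. With this spread the fitted log2 fold change was -3.99 ± 2.36 (SE, edgeR adjusted p = 0.274).

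The 3 samples with the highest Sln (sham replicates 1 and 3 and ischemia replicate 1) also had the highest FPKM of the atrial light chain genes. FPKM of Myl4, the atrial essential light chain, was 4937, 14.3 and 7312 in sham and 1000, 13.3 and 12.2 in ischemia. Myl7, the atrial regulatory light chain, was at 6530, 116.9 and 3541 in sham and 764.4, 10 and 12.3 in ischemia. Other atrial markers were ordered differently. Nppa, the atrial natriuretic peptide gene, was at 67.7 in sham replicate 2, below the 2051 and 1251 of ischemia replicates 2 and 3. Bmp10 and Kcnj3 were higher in sham replicate 2 (0.645 and 5.15) than in ischemia replicate 1 (0.484 and 3.92). Myl2, the ventricular counterpart of Myl7, was at 366.0, 2795 and 346.4 in sham and 1315, 594.2 and 1238 in the ischemia group. Within sham it was thus highest where Sln was lowest, but within ischemia replicate 1 was highest for both genes. The direction for Sln depended on these libraries. With the atrial markers as a covariate its log2 fold change was 0.28, and with sham replicate 2 as the only sham library it was 2.86. Without ischemia replicate 1 the value was -9.22 (edgeR adjusted p = 0.0535, with a range from 0.0535 to 0.824 over the 20 alternatives). The part of the atrial share in the Sln difference was not tested beyond these fits.

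**Figure D2:**
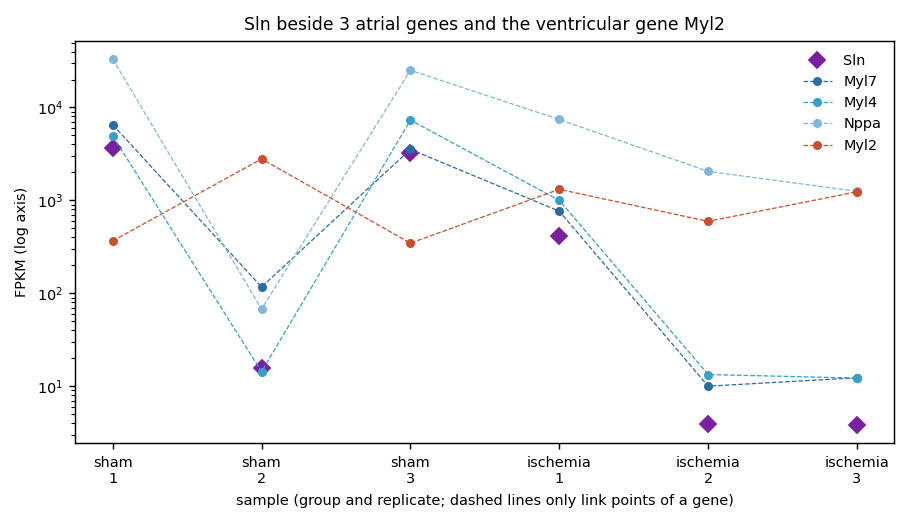
FPKM (log axis) of Sln (purple diamonds), the atrial genes Myl7, Myl4 and Nppa (blue shades) and the ventricular gene Myl2 (orange) in each of the 6 samples. Sln and the atrial light chains were high in sham replicates 1 and 3 and in ischemia replicate 1, where Sln was 3649, 3239 and 414.7, and low in the other 3 samples.

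Entry and extrusion of calcium across the cell membrane were represented by Cacna1c and Slc8a1. Cacna1c (ENSRNOG00000007090, chr4:150641066-150829913, minus strand) encodes the pore of the cardiac L-type calcium channel. Its FPKM was 7.21, 16.6 and 6.33 in sham and 5.39, 1.80 and 6.72 in ischemia. As for Pln, sham replicate 2 was the highest and ischemia replicate 2 the lowest, with the other samples close together. The channel differed by -1.25 ± 0.67 in log2 units (SE, edgeR adjusted p = 0.235), and by -0.50 without sham replicate 2.

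Slc8a1 (ENSRNOG00000008479, chr6:4258991-4520604, minus strand) encodes the sodium-calcium exchanger, the main route by which calcium leaves the cardiomyocyte. Its FPKM was 28.6, 15.2 and 19.8 in sham and 10.2, 16.2 and 19.2 in the ischemia group. The groups overlapped widely, and its lowest value lay in ischemia replicate 1 rather than replicate 2. Its log2 fold change of -0.54 ± 0.30 (SE, edgeR adjusted p = 0.251) was the smallest in size of the 10 in this fit.

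Camk2d (ENSRNOG00000011589, chr2:230901126-231132039, plus strand) encodes the main cardiac CaMKII subunit, which phosphorylates the ryanodine receptor and phospholamban. Its FPKM was 33.6, 23.3 and 33.6 in sham and 21.7, 21.1 and 22.1 in the ischemia group. The 3 ischemia values were nearly alike, with a mean of 21.6 ± 0.453, and lay just under the lowest sham value, by 1.06-fold (sham mean 30.2 ± 5.93, SD, n = 3 each). On the log2 scale Camk2d differed by -0.55 ± 0.16 (SE, edgeR adjusted p = 0.0847). Camk2d and Slc8a1 were the genes whose direction depended on scaling. With libraries scaled to the cardiomyocyte markers, which moved the median of all genes to 0.82, Camk2d was at 0.19, Slc8a1 at 0.22 and the median of the 10 genes at -0.61.

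**Figure D3:**
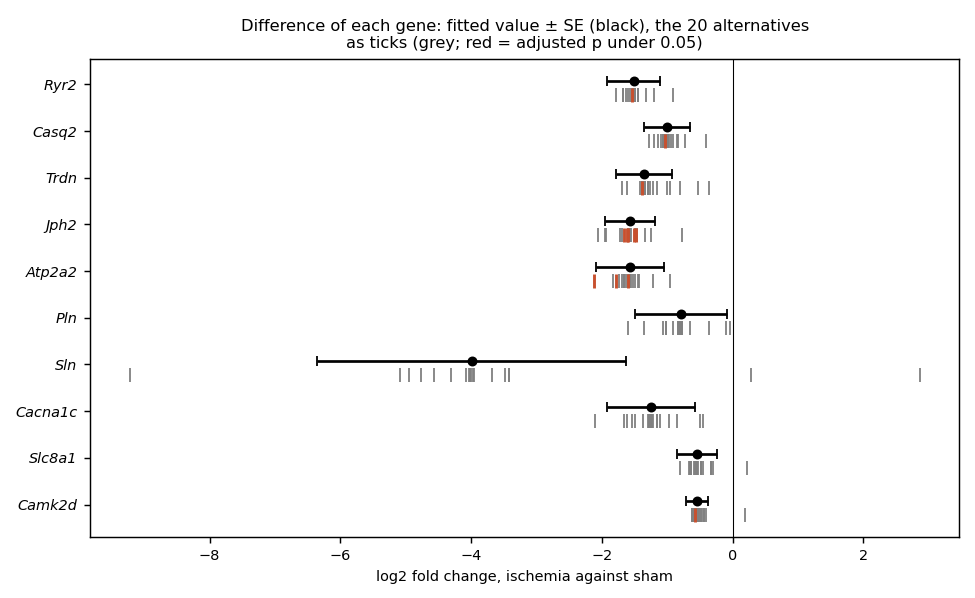
Log2 fold change of each gene, ischemia against sham, from the edgeR fit (black point, bars ± 1 SE) with the 20 alternatives as ticks below it, in red where the adjusted p-value was under 0.05. Of the 200 ticks, 196 lie below 0 and 12 are red, and the ticks of Sln spread from -9.22 to 2.86.

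The exact permutation test of each gene's FPKM, two-sided, gave 0.1 for the 5 genes whose groups did not overlap, which is the smallest p that 3 samples against 3 allow. It gave 0.2 for Trdn, Sln and Cacna1c and 0.4 for Pln and Slc8a1.

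Without sham replicate 1, the library with few Y-linked counts, 10 of 10 log2 fold changes were still below 0, with a median of -1.17. Of the 10, 3 had an unadjusted edgeR p under 0.05, beside 3090 of 13964 genes in all. The log2 fold changes were -1.32 for Ryr2, -0.85 for Casq2, -0.96 for Trdn, -1.70 for Jph2 and -1.58 for Atp2a2. They were -1.01 for Pln, -3.48 for Sln, -1.49 for Cacna1c, -0.32 for Slc8a1 and -0.51 for Camk2d. With sham replicate 2 as the only sham library, 9 of 10 were below 0, with a median of -1.21, and Jph2 and Atp2a2 were at -2.05 and -1.82.

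The order of the 10 levels was compared within each group, since FPKM is scaled to gene length. In sham the mean FPKM was highest for Sln (2301), followed by Atp2a2 (1597), Pln (1004), Casq2 (424.3), Jph2 (110.3), Ryr2 (43.9), Camk2d (30.2), Slc8a1 (21.2), Cacna1c (10.1) and Trdn (8.89). The samples of Pln and Casq2, of Casq2 and Jph2, of Jph2 and Ryr2 and of Ryr2 and Camk2d did not overlap, so this middle of the order held in every sham sample. The neighbours Sln and Atp2a2, Atp2a2 and Pln, Camk2d and Slc8a1, Slc8a1 and Cacna1c, and Cacna1c and Trdn had overlapping ranges. Within each sham sample, however, Atp2a2 exceeded Pln and Camk2d exceeded Slc8a1, whereas the order of the other 3 pairs changed between samples. In sham replicate 2 Sln was the eighth.

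In ischemia Pln (635.7) and Atp2a2 (567.2) led with overlapping samples, and Casq2 (219.7), Sln (140.8) and Jph2 (39.9) followed, again with overlap between Casq2 and Sln and between Sln and Jph2. Camk2d (21.6) came before Ryr2 (16.0) without overlap, the reverse of their order in sham. Ryr2 and Slc8a1 (15.2) overlapped, as did Cacna1c (4.64) and Trdn (3.52), while Slc8a1 and Cacna1c did not.

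Ratios between the genes were computed within each sample, where the scaling between libraries has no part. For Casq2 over Ryr2, the store protein against the release channel, the ratio of FPKM was 9.26, 9.09 and 10.9 in sham and 14.8, 15.2 and 12.1 in ischemia. It was 1.44-fold higher in ischemia, a log2 difference of 0.52, and its groups did not overlap (exact permutation p = 0.1, the smallest possible, and 0.36 adjusted over the 6 ratios). This difference kept its sign when any 1 sample was left out, between 0.46 and 0.63.

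For Pln over Atp2a2, the inhibitor against the pump, the ratio was 0.442, 0.968 and 0.459 in sham and 1.14, 0.773 and 1.27 in ischemia. Pln was thus below the pump in each sham sample and above it in ischemia replicates 1 and 3. Their log2 difference was 0.84, and sham replicate 2 overlapped the ischemia samples (exact permutation p = 0.2, adjusted 0.36). With sham replicate 2 as the only sham library this difference was 0.10. For Slc8a1 over Atp2a2, extrusion against uptake, the ratio was 0.0168, 0.00923 and 0.0137 in sham and 0.0110, 0.0592 and 0.0380 in ischemia. Replicates 2 and 3 of ischemia lay above every sham sample and replicate 1 did not (log2 difference 1.18, exact permutation p = 0.3, adjusted 0.36). The log2 difference was 0.67 without ischemia replicate 2 and 1.88 without ischemia replicate 1.

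Sln exceeded the pump in sham replicates 1 and 3, at Sln over Atp2a2 ratios of 2.15 and 2.25, but was at 0.00961 in sham replicate 2 and at 0.450, 0.0142 and 0.00752 in ischemia. Sln over Pln was likewise 4.86, 0.00993 and 4.90 in sham and 0.395, 0.0184 and 0.00590 in ischemia. Both had an exact permutation p of 0.3 (adjusted 0.36), and the log2 differences of -3.31 and -4.14 became 1.92 and 1.82 with sham replicate 2 as the only sham library. Leaving out single samples gave -5.92 (without sham replicate 2) to -1.98 (without sham replicate 3) for the first and -7.12 to -2.65 for the second, at the same samples. Cacna1c over Ryr2 was 0.124, 0.444 and 0.176 in sham and 0.293, 0.199 and 0.325 in ischemia, with a log2 difference of 0.33 and an exact permutation p of 0.6 (adjusted 0.6). Without sham replicate 1 that difference was -0.07.

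**Figure D4:**
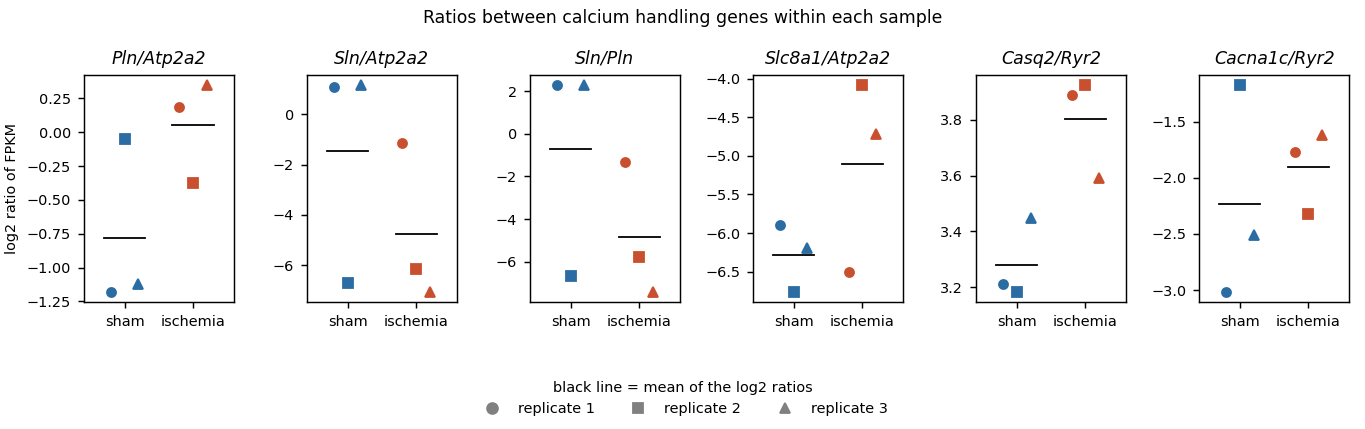
Log2 ratio of FPKM (vertical axis, a separate scale in each panel) for 6 pairs of genes in the 3 sham (blue) and 3 ischemia (orange) samples, with symbols for the replicate number and black lines for the mean log2 ratio. Only the panel of Casq2 over Ryr2, with log2 means of 3.28 in sham and 3.80 in ischemia, shows no overlap.

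The profiles over the 6 samples were compared by the root mean square difference of centred log2(FPKM + 0.1), a description in which the genes share libraries. Among the 45 pairs of the 10 genes, Ryr2 and Casq2 were closest at 0.29, followed by Slc8a1 and Camk2d at 0.31, Pln and Cacna1c at 0.35, and Ryr2 and Atp2a2 at 0.36. The 36 pairs without Sln lay between 0.29 and 1.10, and the pairs with Sln between 3.46 and 4.13.

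Among all tested genes, the closest to Ryr2 were Ccdc141 (0.12), Ddc and Gsta4, and the closest to Casq2 were Klhdc1 (0.086), Spink8 and Cobl. For Trdn they were Rabgap1l (0.13), Wdr19 and Jam2, and for Jph2 they were Tmem65 (0.16), Eml1 and Lims2. For Atp2a2 they were Pgap4 (0.084), Clip4 and Adcy5, the last a cardiac adenylyl cyclase. The 3 closest to Pln were Pbld1 (0.15) and 2 genes of fatty acid oxidation, Cpt1b and Mlycd. For Cacna1c they were Acot11 (0.15), Slc38a3 and Vtn, for Slc8a1 they were Spata9 (0.13), Pkia and Nek3, and for Camk2d they were Klhl42 (0.052), Sike1 and Mras. Sln had no near neighbour, and its 3 closest were Sbk2 (0.57), Mybphl (0.62) and the atrial light chain Myl4 (0.68). With a pseudocount of 1 in place of 0.1, 15 of these 30 neighbours recurred.

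Other genes of the calcium machinery were taken from a list of 84, of which 80 were in the table and 68 passed the filter. Among the 68, 3 were higher and 1 was lower in ischemia by the edgeR adjusted p. These were shares of 4.41% and 1.47%, beside 5.18% and 1.53% over all genes. An unadjusted edgeR p under 0.05 was found for 32 of 68, beside 4528 of 13964 over all genes. The median log2 fold change of the 68 was -0.21, or 0.51 with libraries scaled to the cardiomyocyte markers. Below 0 were 39 of 68 (57.4%), beside 50.1% of all tested genes. Ischemia values lay below all sham values for 18 (26.5%) and above all of them for 13 (19.1%), beside 15.0% and 23.6% over all genes.

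Store-operated entry, in which Orai channels in the cell membrane open when the store sensor Stim1 reports an empty store, held 2 of the 3 higher genes. FPKM of Orai1 was 13.0, 11.4 and 15.6 in sham and 23.3, 39.8 and 32.5 in ischemia, a 2.25-fold higher level (log2 fold change 1.17, edgeR adjusted p = 0.0413). Orai2 was at 0.900, 0.906 and 1.66 in sham and 2.87, 6.04 and 3.77 in ischemia, 3.44-fold higher (log2 fold change 1.78, edgeR adjusted p = 0.0439). In both genes all ischemia samples lay above all sham samples, and replicate 2 of ischemia was the highest, as it was for the neutrophil and monocyte markers. The sensor Stim1 had the lowest log2 fold change of these 5 genes, -0.60 (edgeR adjusted p = 0.135).

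Among 16 tested genes of SR release and the junction, Fkbp1a was higher. It encodes an immunophilin that binds ryanodine receptors, and its FPKM was 117.1, 128.7 and 154.1 in sham and 248.9, 408.0 and 351.6 in ischemia, 2.36-fold higher (log2 fold change 1.24, edgeR adjusted p = 0.0444). The related Fkbp1b had the lowest log2 fold change of the role, -3.89, at an edgeR adjusted p of 0.158. Its levels were low, with FPKM 1.34, 0.159 and 6.52 in sham, 0.325 and 0.189 in ischemia replicates 1 and 3, and no reads in ischemia replicate 2. With sham replicate 2 as the only sham library the log2 fold change of Fkbp1b was -0.21. The median of the role in the fit with all samples was -0.40.

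Of 19 tested kinases, phosphatases, anchors and calcium sensors, the anchor Akap6 was lower. Akap6 holds protein kinase A near the ryanodine receptor, and its FPKM was 12.2, 9.43 and 12.4 in sham and 5.11, 2.91 and 5.02 in ischemia, 2.72-fold lower (log2 fold change -1.44, edgeR adjusted p = 0.0425). The lowest value of the role belonged to the CaMKII gene Camk2b (-1.91, edgeR adjusted p = 0.147). Its FPKM was 1.07, 0.484 and 4.20 in sham and 0.489, 0.3405 and 0.677 in ischemia. With sham replicate 2 as the only sham library its log2 fold change was -0.22. The median of the role was 0.03.

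In the other 4 roles, 0 of 28 tested genes passed the edgeR test and 11 had an unadjusted p under 0.05. Over all genes 6.71% passed, and 4528 of 13964 had an unadjusted p under 0.05. Among 13 membrane channels and their regulators the values ran from -4.05 for the T-type channel Cacna1g (edgeR adjusted p = 0.0698) to 0.97 for the auxiliary subunit Cacna2d1 (edgeR adjusted p = 0.207). Cacna1g had FPKM 16.7, 1.22 and 14.0 in sham and 1.24, 0.194 and 0.451 in ischemia, and was thus also high in the 2 sham libraries with the high atrial markers. Among 4 genes of SR uptake, Calr, which encodes a calcium-binding chaperone of the reticulum, was highest (1.02, edgeR adjusted p = 0.051) and Ppp1r1a, an inhibitor of protein phosphatase, lowest (-1.39, edgeR adjusted p = 0.0956). Among 3 membrane extrusion genes the pumps Atp2b1 (0.98, edgeR adjusted p = 0.217) and Atp2b2 (-3.57, edgeR adjusted p = 0.0743) were the ends. Atp2b1 was at 0.27 without ischemia replicate 2, its highest sample. Atp2b2 had low FPKM, at 0.2385, 2.154 and 0.6154 in sham and 0.1505, 0.0534 and 0.0841 in ischemia. Its log2 fold change was -0.755 with limma on log2(FPKM + 1). Among 8 genes of mitochondrial calcium transport Mcub, a subunit of the uniporter, was highest (2.60, edgeR adjusted p = 0.121) and Letm1 lowest (-0.57, edgeR adjusted p = 0.155).

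The 4 calls of this list changed with the libraries, the scaling and the tool. There were 0 when any 1 sham sample or ischemia replicate 3 was left out, 1 without ischemia replicate 2 and 14 without ischemia replicate 1, and DESeq2 called 28. Total-count scaling gave 2 and cardiomyocyte marker scaling 0. Over all 13964 tested genes there were 462 higher and 109 lower without ischemia replicate 2, 1490 and 1115 without ischemia replicate 1, and 2071 and 1742 in DESeq2, so the counts over all genes moved as well. With an atrial marker covariate, or with sham replicate 2 as the only sham library, 0 genes of the list passed edgeR.

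**Figure D5:**
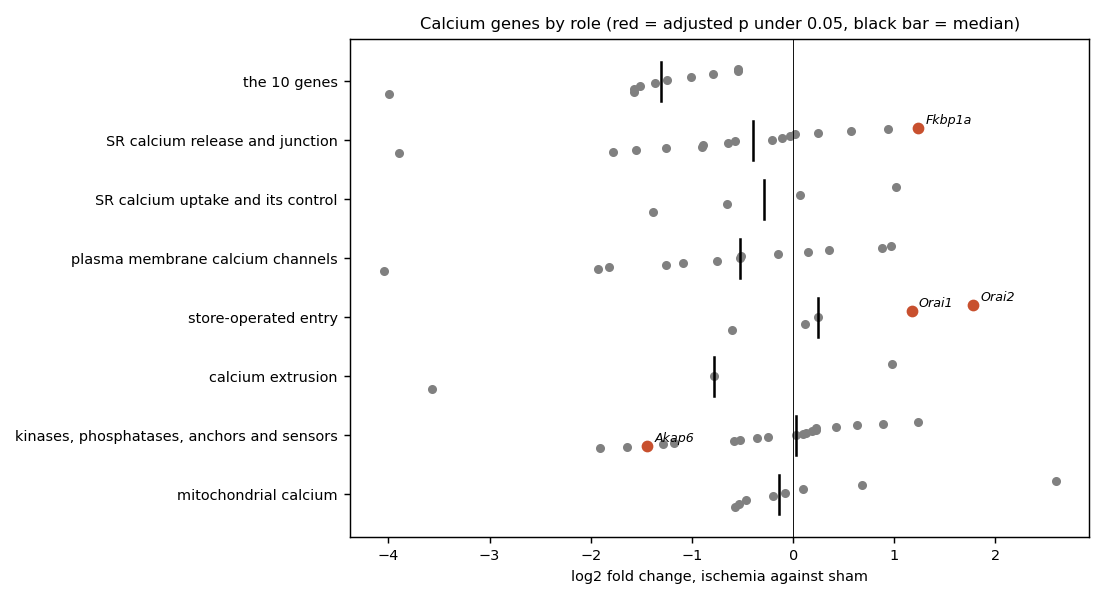
Log2 fold change, ischemia against sham, of the 10 calcium handling genes (top line) and of the 68 other tested calcium genes by role. Each point is a gene, black bars are medians, and the 4 named red points (Fkbp1a, Orai1, Orai2 and Akap6) had an edgeR adjusted p-value under 0.05, while the median of the 10 genes was -1.31 and that of the roles ranged from -0.78 to 0.25.

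The deposited table itself assigned genes to pathways. Its calcium signaling pathway had 119 tested genes, 6 of the 10 genes among them, with 6 higher and 2 lower by the edgeR test and a median log2 fold change of -0.37 (0.43 with cardiomyocyte marker scaling). The share called was 6.72% and the share lower 1.68%, beside 6.71% and 1.53% of all tested genes. The higher genes were Orai1, Orai2, the sphingosine kinase Sphk1 (2.96), the receptor Ptafr (2.46), the G protein subunit Gna15 (1.78) and the inositol trisphosphate kinase Itpkc (1.59), and the lower genes were the phosphorylase kinase subunit Phka1 (-2.10) and the phospholipase Plcb4 (-1.14), each a log2 fold change. Their edgeR adjusted p-values lay between 0.0337 and 0.0485.

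The cardiac muscle contraction pathway of the table had 65 tested genes, 4 of the 10 among them, with a median of -0.43 (0.37 with cardiomyocyte marker scaling) and 56 genes (86.2%) below 0, beside 50.1% of all tested genes. The median was -0.18 without sham replicate 2 and also without ischemia replicate 2. The share called was 4.62% and the share lower 3.08%, beside 6.71% and 1.53% of all tested genes. Of the 65, 1 was higher, the tropomyosin Tpm3 (1.98, edgeR adjusted p = 0.0377), and 2 were lower, Cacng4 (-3.47, edgeR adjusted p = 0.0272) and Cacng7 (-1.90, edgeR adjusted p = 0.0405), both of the gamma subunit family of calcium channels. Without sham replicate 1, 2 or 3 or ischemia replicate 3, 0 genes of either pathway passed. Without ischemia replicate 1 there were 29 in calcium signaling and 10 in cardiac muscle contraction, and without ischemia replicate 2 there were 2 in each.

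The label of these genes as cardiomyocyte genes was compared with the markers. The 9 cardiomyocyte markers had a median log2 fold change of -0.59. Myh6, the alpha myosin heavy chain, had FPKM 4323, 4799 and 3899 in sham and 1328, 436.9 and 885.8 in ischemia (log2 fold change -2.38, edgeR adjusted p = 0.051), while the troponin gene Tnnt2 was at 5189, 6231 and 4482 in sham and 5694, 2564 and 4390 in ischemia (-0.43, edgeR adjusted p = 0.512). The light chain Myl3 had FPKM 796, 9024 and 1021 in sham and 5691, 3180 and 5780 in ischemia (log2 fold change 0.20). The 6 measured markers of skeletal muscle, which uses other isoforms of several of these genes, summed to an FPKM of 14.5 to 27.8 in sham and 16.3 to 29.5 in ischemia, with Casq1 the highest.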

How the data were processed

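Total RNA of myocardial tissue was sequenced in 3 sham and 3 ischemia samples, grouped by the treatment in the labels, with a stranded library kit. The authors deposited raw counts per gene, and FPKM values which they had scaled to gene length and library size. Genes without reads are listed at an FPKM of 0.0001. The submitters' processing notes name STAR and HTSeq without versions. The genome build and the counting settings are not given in the sources used here, so positions are as the table lists them, and reads of near-identical gene copies may have been split or lost.

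A filter of 0.5 FPKM on average left 13964 genes, whose counts were scaled by the trimmed mean of M-values (TMM) method and tested with edgeR's quasi-likelihood test, two-sided, without covariates. Benjamini-Hochberg adjustment covered the 13964 genes, and 0.05 was the threshold. Each SE is the log2 fold change over the root of its F statistic. FPKM levels and within-sample ratios of single genes were compared with exact permutation tests, which cannot give a p below 0.1 here. The edgeR script was tested on simulated data. The 10 genes, the list of other calcium genes and the marker lists were chosen with earlier results of these data known, and no list is offered as independent evidence. Genes named from the list were those past the threshold and the highest and lowest of each role, and the 3 nearest profiles of each of the 10 genes. The genes named from the pathways of the table, and Myh6, Myl3, Tnnt2 and Casq1 among the markers, were chosen after their values were seen. By that rule 1 further gene would be named, and its values are not reported here. Where a symbol had 2 rows, the one with more reads was used.

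There were 20 alternatives: DESeq2, limma on log2(FPKM + 0.1), on log2(FPKM + 1) and on quantile-normalized values, other filters and scalings, the mitochondrial genome removed, the replicate number as a block, an atrial marker covariate, each sample left out, and, added after seeing the data, sham replicate 2 as the only sham library. In that fit the spread came from the ischemia samples alone, and the lone sham sample was assumed to vary like them. Promoters came from RefSeq (GRCr8) by symbol, and protein sequences were not used here. The authors' count and FPKM columns were the only columns used. Python 3.11.15 (matplotlib 3.10.9) and R 4.3.3 were used, with DESeq2 1.42.0, limma 3.58.1 and edgeR 4.0.16.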

Additional observations from a re-analysis of the deposited data

How the results depend on the processing

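Of 200 log2 fold changes (10 genes under 20 alternatives), 196 were below 0 and 12 passed the adjusted threshold. Sln reversed to 0.28 with the atrial marker covariate and to 2.86 with sham replicate 2 as the only sham library. With cardiomyocyte marker scaling Slc8a1 was at 0.22 and Camk2d at 0.19, and the medians turned to 0.51 for the other calcium genes, 0.43 for calcium signaling and 0.37 for cardiac muscle contraction, while the median of all genes was 0.82. The cause of these changes was not tested.

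Of the 10 genes, DESeq2 called 6 lower and quantile normalization 2 (Jph2 and Atp2a2). Limma on log2(FPKM + 0.1), limma on log2(FPKM + 1) and a mean FPKM of at least 5 called 1 each (Jph2). Of all genes tested, these settings called 12.5%, 3.17%, 1.88%, 1.5% and 3.57% lower, in the same order. Leaving out 1 sample gave 0 to 1, the 1 being Atp2a2 without ischemia replicate 1, where 7.98% of all tested genes were called lower.

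Over all genes, 723 were higher and 214 lower in the fit reported (77.2% of calls higher). DESeq2 gave 2071 and 1742 (54.3% higher), with an adjusted p of NA for 108 genes. Quantile normalization gave 443 lower (64.9% of calls higher), no filter 93 lower, total-count scaling 83 lower (86% higher), and cardiomyocyte marker scaling 351 higher and 19 lower (94.9% higher). Leaving out 1 sample gave 0 to 1490 higher and 0 to 1115 lower. There were 0 of either without sham replicate 1, 2 or 3 or ischemia replicate 3. The atrial marker covariate and sham replicate 2 as the only sham library gave 0 with edgeR, with 2219 and 1707 genes at an unadjusted p under 0.05, 2 of the 10 genes among them in each. With cardiomyocyte marker scaling 1 of the 10 had an unadjusted p under 0.05.

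For the other calcium genes the count of 4 became 28 with DESeq2, 2 without a filter, 2 with total-count scaling, 0 with cardiomyocyte marker scaling, 0 with the covariate, 0 with sham replicate 2 alone, and 0 to 14 with 1 sample left out. Their median of -0.21 became -0.11 with limma at a pseudocount of 0.1, -0.10 at 1, -0.39 without a filter and -0.32 to -0.17 with 1 sample left out. For calcium signaling the count of 8 became 46 with DESeq2, 3 with limma on log2(FPKM + 1), 5 without a filter, 5 at a mean FPKM of at least 5, 2 with total-count scaling, 1 with cardiomyocyte marker scaling, 0 with the covariate or with sham replicate 2 alone, and 0 to 29 with 1 sample left out. For cardiac muscle contraction the count of 3 became 14 with DESeq2, 5 with limma on log2(FPKM + 0.1), 6 with quantile normalization, 0 with the covariate or with sham replicate 2 alone, and 0 to 10 with 1 sample left out. Its median of -0.43 was -0.81 with sham replicate 2 alone and ran from -0.584 to -0.177 with 1 sample left out (-0.177 without sham replicate 2 and -0.183 without ischemia replicate 2).

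With sham replicate 2 alone the log2 difference was 0.10 for Pln over Atp2a2, 1.66 for Slc8a1 over Atp2a2 and 0.62 for Casq2 over Ryr2. It became 1.92 for Sln over Atp2a2, 1.82 for Sln over Pln and -0.73 for Cacna1c over Ryr2. The last was -0.066 without sham replicate 1, and ran from -0.066 to 0.855 with 1 sample left out.

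The labels do not say whether equal replicate numbers pair a sham with an ischemia sample. The check below gave no sign of pairing, and with 3 samples a group it cannot exclude it. The deviations from the group means correlated at -0.15 on average where a sham and an ischemia sample had the same number, and at 0.07 where the numbers differed. A fit with the replicate block, in edgeR, called 0 genes higher and 0 lower, with 3349 at an unadjusted p under 0.05, 6 of the 10 genes among them, and so 0 of the other calcium genes and of both pathways. The 10 log2 fold changes stayed below 0, with a median of -1.21.

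With 3 samples a group, the exact permutation test cannot pass 0.05. At these depths counting error was small for the 10 genes, whose lowest count was 81, and the spread between libraries set the precision.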
